A study of Mus musculus with 16 samples.

Results

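The 10 genes described here are Axl, Egfr, Ngfr, Wnt5a, Zeb1, Zeb2, Snai2, Twist1, Sox9 and Nes. As a group they stand for the invasive, dedifferentiated state of melanoma, though Zeb2 and Snai2 are also normal melanocyte genes. All 10 were taken by gene symbol from a table of 45777 genes, and each was found once. Their mRNA was measured by RNA-seq in tumors of B16F10, a melanoma line derived from C57BL/6J mice, grown as syngeneic allografts under the skin of the flank. The 16 tumors fell into 4 groups of 4. Lean tumors came from wild-type C57BL/6J mice (B6) and obese tumors from C57BL/6J-ob/ob mice, which lack leptin and overeat, and both were injected with the same line at 6 weeks of age. Tumors of either host were taken before therapy or after chemotherapy with etoposide (ETS), a topoisomerase II inhibitor that breaks DNA, given 5 times at 20 mg per kg. Whether the mice sampled before therapy received a vehicle, and how old they were at collection, is not given in the sources used here. Neither do the labels say that each sample was a separate mouse, so that p-values measure the spread between these samples.

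Melanoma cells can move between a differentiated state, in which Mitf drives pigment genes, and an invasive or dedifferentiated state with low Mitf activity, high Axl and a mesenchymal or neural crest-like gene program. The switch is often compared to the epithelial-mesenchymal transition (EMT), but in the melanocyte lineage its factors divide: Zeb2 and Snai2 are normal melanocyte genes, whereas Zeb1 and Twist1 go with the invasive state. In patients, high AXL, NGFR or EGFR has been associated with resistance to targeted therapy. These genes are not particular to melanoma cells. Axl is also made by macrophages and fibroblasts, Egfr, Zeb1 and Twist1 by fibroblasts, and Nes by cells of the vessel wall. RNA of whole tumor tissue holds these host cells too, and in it fewer cells of a type and less RNA per cell cannot be told apart.

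The libraries held between 47199949 and 61655287 counted reads. The melanocyte genes, 18 in all and led by Tyrp1, summed to between 12709 and 31437 CPM (counts scaled to the size of the library) in every tumor, so the markers of the labelled line were present. Obese tumor 2 after ETS held 134 CPM of 7 keratinocyte markers and 453 CPM of 10 skeletal muscle markers. Muscle markers also reached 176 CPM in lean tumor 2 before therapy and 366 and 206 CPM in lean tumors 1 and 2 after ETS. Obese tumor 4 after ETS had the highest summed fibroblast markers of all tumors, at 5910 CPM.

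Start-site windows of 3 members are shown because, among the members, Axl had the largest log2 difference between hosts before therapy, Egfr ranged from 0.0716 to 27.4 CPM between tumors, and Nes was the only one called higher in obese tumors at both stages. Each runs from 250 bases before to 50 bases after a RefSeq start site in GRCm38.p6 (mm10), 5′ to 3′ on the strand of the gene, with matches to the motifs searched in capitals.
Axl, chr7:25788684-25788983, minus strand: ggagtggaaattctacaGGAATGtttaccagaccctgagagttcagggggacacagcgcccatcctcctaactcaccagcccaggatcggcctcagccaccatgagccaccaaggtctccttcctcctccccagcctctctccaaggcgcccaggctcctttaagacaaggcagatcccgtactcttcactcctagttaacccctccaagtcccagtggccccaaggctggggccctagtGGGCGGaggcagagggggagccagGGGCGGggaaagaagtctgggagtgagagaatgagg
Egfr, chr11:16751953-16752252, plus strand: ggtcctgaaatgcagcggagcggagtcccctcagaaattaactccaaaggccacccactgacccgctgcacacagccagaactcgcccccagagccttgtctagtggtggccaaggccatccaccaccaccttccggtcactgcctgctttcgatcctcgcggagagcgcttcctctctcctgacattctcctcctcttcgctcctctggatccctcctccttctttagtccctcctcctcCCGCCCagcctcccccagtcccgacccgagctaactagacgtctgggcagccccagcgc
Nes, chr3:87970843-87971142, plus strand: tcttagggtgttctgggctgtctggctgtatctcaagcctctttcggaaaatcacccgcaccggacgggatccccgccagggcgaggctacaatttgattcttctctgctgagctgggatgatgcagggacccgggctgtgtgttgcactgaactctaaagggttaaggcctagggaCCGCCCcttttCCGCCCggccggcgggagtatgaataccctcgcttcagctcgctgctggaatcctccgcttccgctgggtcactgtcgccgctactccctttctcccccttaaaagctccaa
Both strands were searched for 6 motifs: the E2-box CACCTG of Zeb and Snail factors, the AP-1 site TGANTCA, the TEAD site GGAATG, the core of the interferon-stimulated response element (ISRE), the GAS element TTCNNNGAA and the GC box GGGCGG. The Axl window held 1 TEAD site, which starts at position -233, and 2 GC boxes. The Egfr window held 1 GC box and the Nes window held 2, and no match to the other motifs was found in the 3 windows. Of all 32851 windows of this length, 14.7% held the TEAD site, 35.7% the GC box, 20.2% the E2-box, 7.81% the AP-1 site, 3.44% the ISRE core and 8.30% the GAS element. None of the 6 motifs overlapped another in these windows. A match is a description of letters and not a bound site. Windows of 6 of the 10 members were searched. In the RefSeq annotation, Axl spans chromosome 7 from 25756500 to 25788924, Egfr chromosome 11 from 16752203 to 16913907 and Nes chromosome 3 from 87971093 to 87980451. Overlapping genes named below were taken from the GENCODE annotation.

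To ask how chemotherapy moved these genes in either host, tumors after ETS were set against those before it. In lean tumors Axl, Snai2, Zeb1 and Zeb2 fell. In obese tumors Axl, Zeb1, Egfr and Wnt5a rose. Axl and Zeb1 thus moved in opposite directions, from high levels in lean tumors and low levels in obese tumors before therapy. Of the 8 members that could be tested in the main fit, 4 fell in lean tumors (adjusted p under 0.05 in edgeR over 16209 genes), where 22.8% of all genes were lower, 21.0% higher and 43.8% changed either way. In obese tumors 4 of 8 were higher, where 21.2% of all genes were higher, 19.0% lower and 40.2% changed either way. The groups before and after ETS did not overlap for 4 of the 8 members in lean tumors (41.2% of all genes) and for 3 in obese tumors (34.2% of all genes). The difference between the effects, lean minus obese, was tested directly. It passed at an adjusted p under 0.05, with a negative sign, for 5 of the 8 members: Axl, Egfr, Wnt5a, Zeb1 and Snai2. Of all genes, 10.1% passed with a negative sign, 6.35% with a positive sign and 16.4% with either. Fitted values above 0 were found for 0 of the 8 members and for 8837 of 16209 genes. Both effects enter that test, so its calls are not separate from theirs. Ngfr and Twist1 had a count of 0 in at least 1 tumor and are given from a fit without that filter.

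**Figure D1:**
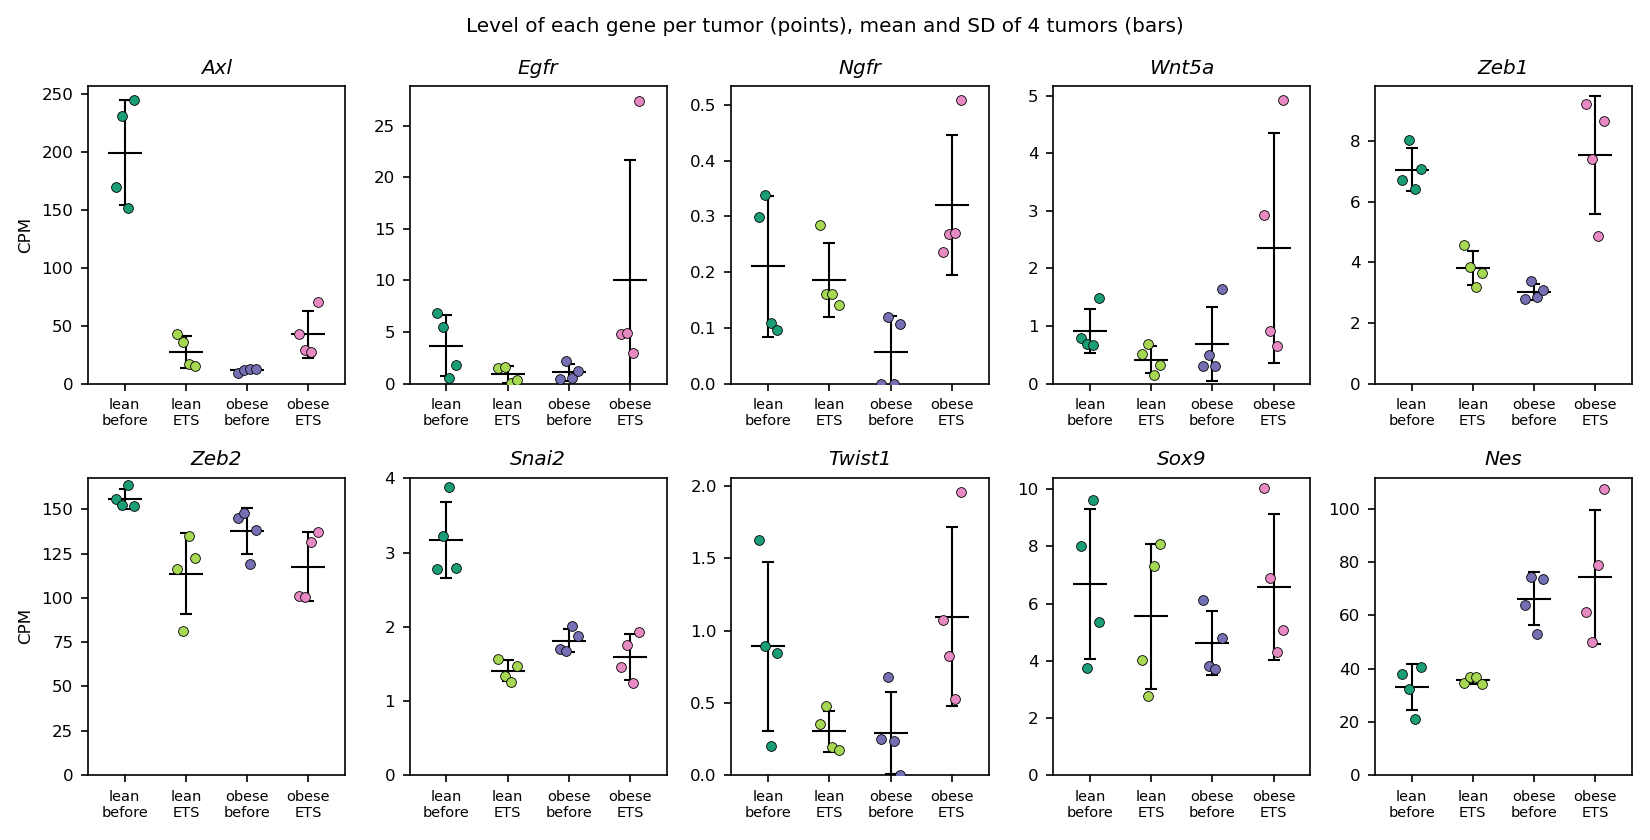
The level in CPM (linear axis from 0) of each of the 10 genes in every tumor, in 4 groups of 4 tumors, with bars for the mean and SD. For Axl the lean tumors before therapy lie between 151 and 245 CPM, above all other tumors, and for Nes all 8 obese tumors lie above all 8 lean tumors.

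Axl encodes a receptor tyrosine kinase of the TAM family that binds the ligand Gas6. Its level in the 4 lean tumors before therapy was 169.5, 230.4, 151 and 245 CPM, and after ETS it was 42.9, 35.4, 16.5 and 14.8 CPM. In obese tumors it was 8.85, 11.5, 12.9 and 12.2 CPM before therapy and 42.6, 28.9, 27.4 and 70.3 CPM after ETS. Both pairs of groups were fully apart. Axl fell by 2.86 on the log2 scale in lean tumors (SE 0.36, edgeR adjusted p = 3.89e-05) and rose by 1.89 in obese tumors (SE 0.35, edgeR adjusted p = 0.000894). Lean minus obese, the effects differed by -4.76 (SE 0.50, edgeR adjusted p = 2.78e-05). These calls held in all alternatives run. After ETS the levels of lean and obese tumors overlapped.

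Egfr encodes the epidermal growth factor receptor. Lean tumors held 6.81, 5.52, 0.572 and 1.81 CPM before therapy and 1.497, 1.62, 0.0716 and 0.315 CPM after ETS, and these groups overlapped. Obese tumors held 0.413, 2.21, 0.569 and 1.22 CPM before therapy and 4.77, 4.90, 2.96 and 27.4 CPM after ETS. The obese groups were apart, with tumor 4 far above the others. The log2 change was 3.18 in obese tumors (SE 0.97, edgeR adjusted p = 0.0170), but 1.94 without obese tumor 4 after ETS (edgeR adjusted p = 0.0811) and 2.96 without obese tumor 3 before therapy (edgeR adjusted p = 0.0533). In lean tumors it was -2.07 (SE 0.94) and did not pass (edgeR adjusted p = 0.0853), though it did in 1 of 16 alternatives. The difference between the effects was -5.25 (SE 1.35, edgeR adjusted p = 0.0147), and it passed whichever single tumor was left out. An antisense gene, Egfros, overlaps Egfr, and whether the counting used strand is not stated.

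Ngfr encodes the low-affinity nerve growth factor receptor p75, a neural crest marker. It was close to the limit of detection, with 18, 22, 7 and 6 reads in lean tumors before therapy and 16, 8, 9 and 8 after ETS. Obese tumors held 0, 6, 0 and 6 reads before therapy and 13, 13, 17 and 29 after ETS, so that these groups did not overlap. A count of 0 allows up to 0.0620 and 0.0502 CPM in these libraries at a floor of 3 reads, which covers counting error only. In the fit without the filter on genes with a 0, Ngfr was higher after ETS in obese tumors (log2 change 2.45, SE 0.82, edgeR adjusted p = 0.0460), a value that rests on the 2 libraries at 0 and is no bound. No other comparison of Ngfr passed.

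Wnt5a encodes a secreted ligand that signals through Ror and Frizzled receptors and promotes melanoma motility. Lean tumors held 0.797, 0.692, 0.665 and 1.48 CPM before therapy and 0.517, 0.679, 0.143 and 0.315 CPM after ETS. Obese tumors held 0.310, 0.499, 0.301 and 1.64 CPM before therapy and 2.92, 0.906, 0.653 and 4.92 CPM after ETS. In both hosts the groups overlapped, and 1 tumor before therapy stood above its group. Wnt5a rose by 1.76 in obese tumors (SE 0.67, edgeR adjusted p = 0.0461), and its difference between the effects was -2.90 (SE 0.96, edgeR adjusted p = 0.0499). Each of these calls was kept in only 7 of its alternatives (16 and 22 were run). The rise was no longer called without any of obese tumors 1, 2 and 3 before therapy or 1 and 4 after ETS, and of the fits that left out 1 tumor the difference stayed called in those without lean tumor 2 after ETS, obese tumor 4 before therapy, or obese tumor 2 or 3 after ETS. Without obese tumor 4 after ETS the rise was 1.10 (edgeR adjusted p = 0.180), and without obese tumor 4 before therapy it was 2.66 (edgeR adjusted p = 0.00996). The antisense gene Gm2670 overlaps Wnt5a.

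Zeb1 encodes a zinc finger repressor of epithelial genes. In lean tumors it was at 6.72, 8.05, 6.41 and 7.09 CPM before therapy and 4.56, 3.86, 3.19 and 3.66 CPM after ETS. In obese tumors it was at 2.79, 3.39, 2.86 and 3.09 CPM before therapy and 9.25, 7.41, 4.88 and 8.67 CPM after ETS. The spread within groups was small before therapy and the groups did not overlap in either host. It fell by 0.89 in lean tumors (SE 0.19, edgeR adjusted p = 0.00178) and rose by 1.31 in obese tumors (SE 0.19, edgeR adjusted p = 0.000147). Between hosts the effects differed by -2.20 (SE 0.27, edgeR adjusted p = 8.07e-05). Zeb1, on chromosome 18, overlaps 2 genes on the opposite strand, Gm10125 and Gm16147, whose reads could not be separated if strand was not used.

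Zeb2, the paralog that is part of the normal melanocyte program, was far higher than Zeb1 and moved little. Lean tumors held 156, 152, 164 and 152 CPM before therapy and 116, 81.2, 135 and 122 CPM after ETS. Obese tumors held 145, 148, 119 and 138 CPM before therapy and 101, 101, 132 and 137 CPM after ETS. The lean groups were apart and the obese groups overlapped. Zeb2 fell by 0.46 in lean tumors (SE 0.14, edgeR adjusted p = 0.0159). In obese tumors the log2 change was -0.23 (SE 0.14, edgeR adjusted p = 0.211), and the difference between the effects, -0.23 (SE 0.20, edgeR adjusted p = 0.464), did not pass, so a larger fall in lean tumors was not shown. Zeb2os and other short genes lie opposite to it.

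Snai2 encodes Slug, a zinc finger factor of neural crest and melanocyte development. Lean tumors held 2.77, 3.23, 3.88 and 2.80 CPM before therapy and 1.57, 1.34, 1.25 and 1.47 CPM after ETS. Obese tumors held 1.70, 1.68, 2.01 and 1.87 CPM before therapy and 1.45, 1.75, 1.24 and 1.93 CPM after ETS. The lean tumors before therapy stood above all 12 others, and the obese groups overlapped. It fell by 1.17 in lean tumors (SE 0.18, edgeR adjusted p = 0.000197) and by 0.19 in obese tumors, which did not pass (SE 0.18, edgeR adjusted p = 0.434). The difference between the effects, -0.98, did pass (SE 0.26, edgeR adjusted p = 0.0166).

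Twist1 encodes a basic helix-loop-helix factor of mesenchyme. Lean tumors held 98, 58, 13 and 53 reads before therapy and 20, 24, 11 and 10 after ETS. Obese tumors held 12, 34, 14 and 0 reads before therapy and 59, 40, 33 and 112 after ETS. The groups overlapped in both hosts. Without the filter on genes with a 0 its log2 change was -1.58 in lean tumors (SE 0.78, edgeR adjusted p = 0.166) and 1.91 in obese tumors (SE 0.79, edgeR adjusted p = 0.104). Their difference, lean minus obese, was -3.49 (SE 1.11, edgeR adjusted p = 0.0613). Twist1 could be fitted for this difference in 2 other settings, and it passed in both. It was -3.06 without obese tumor 4 before therapy, the library at 0 (edgeR adjusted p = 0.0308), and -3.44 with edgeR's filterByExpr in place of no filter (edgeR adjusted p = 0.0436).

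Sox9, a neural crest and cartilage factor that opposes Sox10 in melanoma, passed no test. Lean tumors held 8.003, 3.73, 9.63 and 5.35 CPM before therapy and 4.03, 2.78, 7.32 and 8.07 CPM after ETS. Obese tumors held 6.12, 3.83, 3.70 and 4.79 CPM before therapy and 10.04, 6.88, 4.29 and 5.08 CPM after ETS. All 4 groups overlapped, and the fitted change was -0.27 in lean tumors (SE 0.37) and 0.51 in obese tumors (SE 0.37), with edgeR adjusted p = 0.576 and 0.283.

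Nes encodes nestin, an intermediate filament protein of neural progenitors that is present in many melanomas. It differed by host and not detectably by therapy. Lean tumors held 38.0, 32.4, 21.0 and 40.4 CPM before therapy and 34.6, 36.7, 36.7 and 34.2 CPM after ETS. Obese tumors held 64.0, 74.2, 53.1 and 73.8 CPM before therapy and 61.2, 50.03, 78.9 and 107 CPM after ETS. The lowest obese tumor was above the highest lean tumor, whatever the therapy. The log2 change with ETS was 0.11 in lean tumors (SE 0.22, edgeR adjusted p = 0.705) and 0.17 in obese tumors (SE 0.21, edgeR adjusted p = 0.565).

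Obese and lean tumors were next compared at matched stages. These comparisons reuse the same tumors as the ETS effects, so their values are given beside those and not as separate support. Before therapy, Axl, Zeb1 and Snai2 were lower in obese tumors and Nes was higher, 4 of 8 members, where 26.4% of all genes differed (12.9% lower and 13.5% higher). Axl was lower by 4.13 on the log2 scale (SE 0.38, edgeR adjusted p = 2.61e-06), a fold of 17.5 and the place 119 from the lowest among the fitted changes of 16209 genes. Zeb1 was lower, with a log2 difference of -1.22 (SE 0.19, edgeR adjusted p = 0.000292), and so was Snai2, at -0.80 (SE 0.18, edgeR adjusted p = 0.00434). Nes was higher by 1.01 (SE 0.22, edgeR adjusted p = 0.00324). Groups did not overlap for 5 of 8 members (30.4% of all genes): these 4 and Zeb2, whose difference of -0.18 did not pass (SE 0.14, edgeR adjusted p = 0.373). The 4 calls held in all alternatives run.

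After ETS, 4 of 8 members were higher in obese tumors and none was lower, where 5.58% of all genes differed, 3.28% higher and 2.30% lower. Nes was higher by 1.07 (SE 0.22, edgeR adjusted p = 0.0167) and Zeb1 by 0.98 (SE 0.19, edgeR adjusted p = 0.0141). Egfr was higher by 3.52 (SE 0.98, edgeR adjusted p = 0.0488) and Wnt5a by 2.51 (SE 0.70, edgeR adjusted p = 0.0476). The Egfr and Wnt5a calls lay at the threshold and were lost in 9 and 10 of 16 alternatives, among them each that left out a lean tumor and, for Wnt5a, the one without obese tumor 1. Without obese tumor 4 after ETS the differences were 2.29 for Egfr (edgeR adjusted p = 0.188) and 1.86 for Wnt5a (edgeR adjusted p = 0.164), and 2 members passed. With the spread estimated from these 8 tumors alone, 0 of 8 passed in edgeR (4 at an unadjusted p under 0.05), while edgeR's exact test and DESeq2 on these counts each called 4. Axl, the member with the largest difference before therapy, was at a log2 difference of 0.63 after ETS (SE 0.34, edgeR adjusted p = 0.267). Groups did not overlap for Zeb1, Egfr and Nes, 3 of 8, where 13.2% of all genes did so. The study's cutoffs, a change of at least 2-fold with an unadjusted p under 0.05, were also applied to the edgeR quasi-likelihood test used here. The study itself used edgeR's exact test. By these cutoffs 3 of 8 members passed in lean tumors (15.2% of all genes), 4 in obese tumors (13.3%), 4 in the difference (12.3%), 3 between hosts before therapy (11.6%) and 3 after ETS (6.69%).

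**Figure D2:**
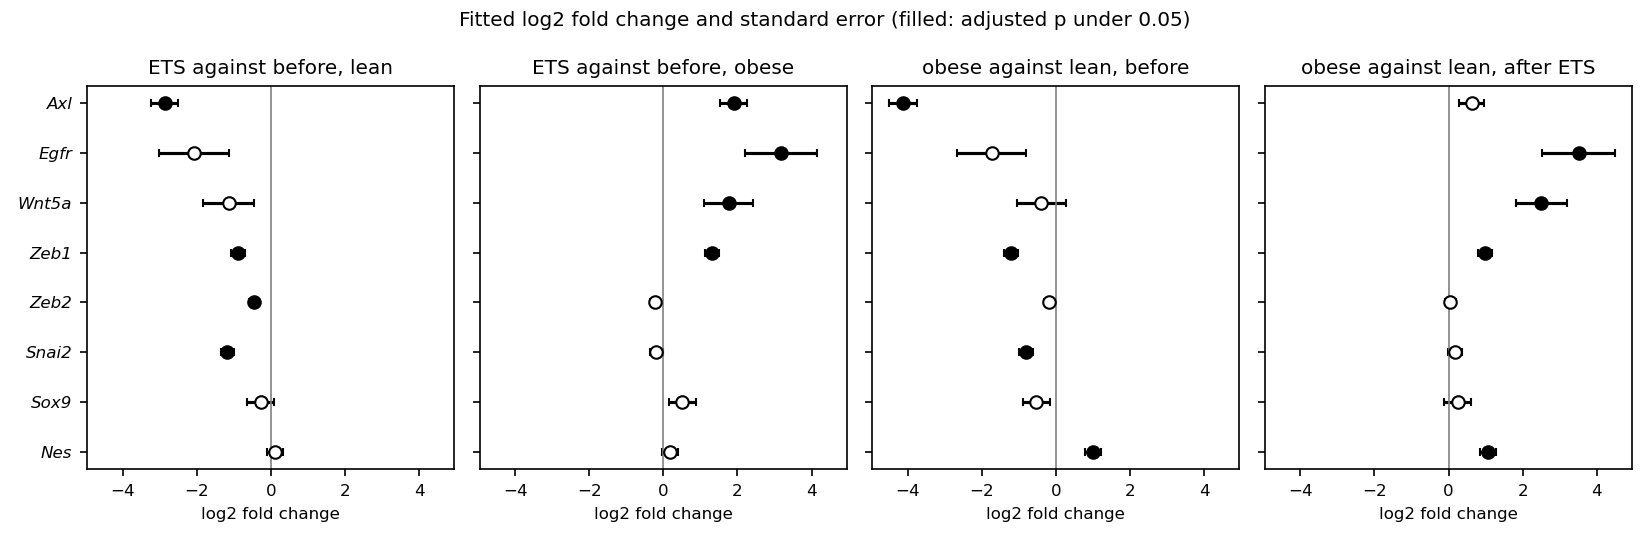
The fitted log2 fold change (points) and its standard error (bars) of the 8 members in the main fit, for the ETS effect in lean and obese tumors and for obese against lean tumors before and after ETS. Filled points passed at an adjusted p under 0.05, and Axl moves from -2.86 in the lean to 1.89 in the obese ETS comparison.

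Levels of different genes were set side by side per transcript length, as TPM, which scales counts to both library size and gene length. In lean tumors before therapy Axl led the 10 genes with 69.0 to 123 TPM, followed by Zeb2 with 33.2 to 41.9 TPM and Nes with 7.88 to 14.5 TPM, without overlap. Sox9, Snai2 and Zeb1 overlapped below them at medians between 2 and 4 TPM, and Ngfr was last, at a median of 0.116 TPM. In obese tumors before therapy the order was Zeb2 (25.3 to 33.0 TPM), Nes (16.8 to 24.7 TPM) and Axl (3.45 to 5.25 TPM). After ETS the ranges of Axl and Nes overlapped in either host, and in obese tumors those of Zeb2, Nes and Axl all did.

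Among the 3 TAM receptors, Axl took a median of 87.2% of the summed TPM in lean tumors before therapy (85.1% to 89.5%) and 31.9% in obese ones (25.7% to 33.6%). After ETS it took 44.4% in lean and 52.1% in obese tumors. Tyro3, the TAM receptor of neural and melanocytic cells, stayed at a median of 7.57 to 8.69 TPM in all 4 groups and passed no comparison. Mertk, the TAM receptor best known from macrophages, changed in the same directions as Axl: it fell by 0.78 in lean tumors (SE 0.20, edgeR adjusted p = 0.00663) and rose by 1.48 in obese tumors (SE 0.21, edgeR adjusted p = 0.000122). Before therapy Mertk was lower in obese tumors, at -1.78 (SE 0.21, edgeR adjusted p = 2.43e-05). Gas6, the ligand of Axl, ranged from 1.02 to 26.3 CPM in lean tumors before therapy and from 23.5 to 54.5 CPM in obese tumors after ETS. Those groups were not compared with each other. Against obese tumors before therapy, the log2 change of Gas6 in obese tumors after ETS was 2.55 (SE 0.96, edgeR adjusted p = 0.0441), a call kept in 9 of 16 alternatives. It was lost without any of obese tumors 1, 3 and 4 before therapy or 1, 2 and 4 after ETS, where the Gas6 change was 2.21 to 2.80 (edgeR adjusted p = 0.0643 to 0.105), with 2.59 without tumor 2 and 2.39 without tumor 4 after ETS.

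Ratios within a tumor do not depend on its scaling. The ratio of Zeb2 to Zeb1 TPM had a median of 14.96 before therapy in lean tumors and 33.1 in obese ones, and of 20.3 and 9.71, respectively, after ETS. The ratio of Axl to Mitf TPM, which is high in the invasive state, had a median of 0.421 before therapy in lean tumors and 0.0187 in obese ones, without overlap, and of 0.0675 and 0.0726 after ETS. Each of the 8 comparisons of these ratios was tested by an exact two-sided permutation test over 70 arrangements, whose smallest p is 0.0286. The Axl to Mitf ratio reached that p in lean tumors with ETS, in obese tumors with ETS and between hosts before therapy, and so did Zeb2 to Zeb1 between hosts before therapy. After adjustment over the 8 tests the smallest p was 0.0571, so none passed. Mitf itself ranged from 254 to 839 CPM over the 16 tumors and passed no comparison.

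Partners of the members were read from lists of genes. Beside them stand the shares of all genes, 21.0% higher and 22.8% lower with ETS for lean hosts (median log2 change -0.01), and 21.2% higher and 19.0% lower for obese hosts (median 0.01). Of 31 receptor partners and ligands, 18 could be tested. With ETS 5 were higher and 3 lower in lean tumors (median 0.16), and 4 higher and 1 lower in obese tumors (median 0.31). Without lean tumor 1 after ETS 3 were higher and 3 lower in lean tumors. Among the Wnt5a receptors, Fzd5 fell in lean tumors, with a log2 change of -1.15 (SE 0.21, edgeR adjusted p = 0.000543), while Fzd2 rose by 0.75 (SE 0.15, edgeR adjusted p = 0.00142) but not in limma on log2(TPM + 1), at 0.30 (limma adjusted p = 0.0933). Ror1 and Ror2, the best known receptors of Wnt5a, were not tested because of counts of 0, and neither exceeded 2.36 CPM in any tumor. Of the Egfr ligands, Hbegf passed no comparison, and Tgfa before therapy was higher in obese tumors, by 1.56 (SE 0.51, edgeR adjusted p = 0.0348, kept in 8 of 16 alternatives). Without any of lean tumors 1, 3 and 4 or obese tumors 1, 3 and 4 the Tgfa call was lost, with differences of 1.22 to 1.57 (edgeR adjusted p = 0.0580 to 0.100). Of 12 other EMT factors, 8 could be tested: 1 was higher and 4 lower with ETS in lean tumors (median -0.67), and 2 were higher and 2 lower in obese tumors (median -0.12). In lean tumors 2 were lower without lean tumor 2 before therapy, and in obese tumors 1 was higher and 1 lower without obese tumor 4 after ETS, and 1 was lower without obese tumor 3 before therapy or obese tumor 1 after ETS. Prrx1, a mesenchymal homeobox factor, was lower in lean tumors, at -1.54 (SE 0.56, edgeR adjusted p = 0.0362, kept in 12 of 16 alternatives), and higher in obese tumors, at 2.14 (SE 0.57, edgeR adjusted p = 0.00827). The lean Prrx1 call was lost without tumor 1 (-1.13, edgeR adjusted p = 0.116) or 2 before therapy (-1.54, edgeR adjusted p = 0.0606) and without tumor 3 (-1.36, edgeR adjusted p = 0.0904) or 4 after ETS (-1.32, edgeR adjusted p = 0.0920). Foxc1 fell in both hosts, by 1.14 in lean (SE 0.19, edgeR adjusted p = 0.000296) and by 0.62 in obese tumors (SE 0.19, edgeR adjusted p = 0.0174, kept in 13 of 16 alternatives). In obese tumors the log2 change of Foxc1 was -0.56 without tumor 4 after ETS (edgeR adjusted p = 0.0514), -0.58 without tumor 1 after ETS (edgeR adjusted p = 0.0588) and -0.54 without tumor 3 before therapy (edgeR adjusted p = 0.0549).

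Of 44 genes of the invasive program (TEAD and AP-1 factors, TGF-beta signaling, matrix and proteolysis genes), all could be tested. In lean tumors with ETS 8 were higher and 9 lower, with a median log2 change of 0.01 beside -0.01 over all genes. In obese tumors 27 were higher and 2 lower, with a median of 0.95 beside 0.01, and without obese tumor 4 after ETS 21 were higher and 2 lower. The difference between the effects passed with a negative sign for 17 and with a positive sign for 3 (10.1% and 6.35% of all genes). Tgfbi, a secreted matrix protein induced by TGF-beta, fell by 3.74 in lean tumors (SE 0.65, edgeR adjusted p = 0.000443) and rose by 2.60 in obese tumors (SE 0.63, edgeR adjusted p = 0.00465). Plau, the urokinase protease, fell by 1.21 in lean tumors (SE 0.30, edgeR adjusted p = 0.00459) and rose by 1.84 in obese tumors (SE 0.31, edgeR adjusted p = 0.000392). Vim, the mesenchymal filament vimentin, rose in both, by 0.91 in lean (SE 0.15, edgeR adjusted p = 0.000369) and 0.99 in obese tumors (SE 0.15, edgeR adjusted p = 0.000251). Before therapy 11 of the 44 were lower and 5 higher in obese tumors (12.9% and 13.5% of all genes). After ETS 11 were higher and 0 lower in edgeR (3.28% and 2.30% of all genes). The higher count was 1 with only the groups compared and 22 in DESeq2. It was 3 without obese tumor 4, 7 without obese tumor 1, 2 to 7 when any lean tumor was left out, and 17 without obese tumor 2 or 3.

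The neural crest list gave smaller counts. Of 15 genes 10 could be tested, with 2 higher and 1 lower in lean tumors (median log2 change 0.26) and 3 higher and 2 lower in obese tumors (median 0.09) after ETS. Of all genes 21.0% were higher and 22.8% lower in lean and 21.2% and 19.0% in obese tumors. Cdh6, a cadherin of migrating neural crest, fell by 3.26 in lean tumors (SE 0.48, edgeR adjusted p = 0.000121) and was lower before therapy in obese tumors, at -3.84 (SE 0.49, edgeR adjusted p = 5.54e-05). With ETS Cdh6 rose by 1.59 in obese tumors (edgeR adjusted p = 0.0147). That call was kept in 13 of 16 alternatives and lost, among others, without obese tumor 4 after ETS. The difference between its effects was -4.85 (edgeR adjusted p = 0.000192). Ncam1 was higher in obese tumors before therapy, by 2.16 (SE 0.35, edgeR adjusted p = 0.000391). In the melanocyte program, the other pole of the switch, 5 of 18 genes were higher and 0 lower with ETS in lean tumors (median 0.29), and 8 higher and 0 lower in obese tumors (median 0.62, edgeR), or 13 higher without obese tumor 4 after ETS. With limma on log2(TPM + 1) 3 were higher and 1 lower in lean tumors (median -0.08), and 6 higher and 0 lower in obese tumors (median 0.41). Before therapy 9 of 18 were lower in obese tumors (median -0.61, where 12.9% of all genes were lower), but 4 without obese tumor 4 and 5 without obese tumor 3. Among the 9 was the pigment cell channel Trpm1, at -2.25 (SE 0.36, edgeR adjusted p = 0.000387). Of 20 epithelial genes that Zeb and Snail factors repress, 4 could be tested, and Cdh1, E-cadherin, was between 0.904 and 4.66 CPM in all tumors and passed no comparison.

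**Figure D3:**
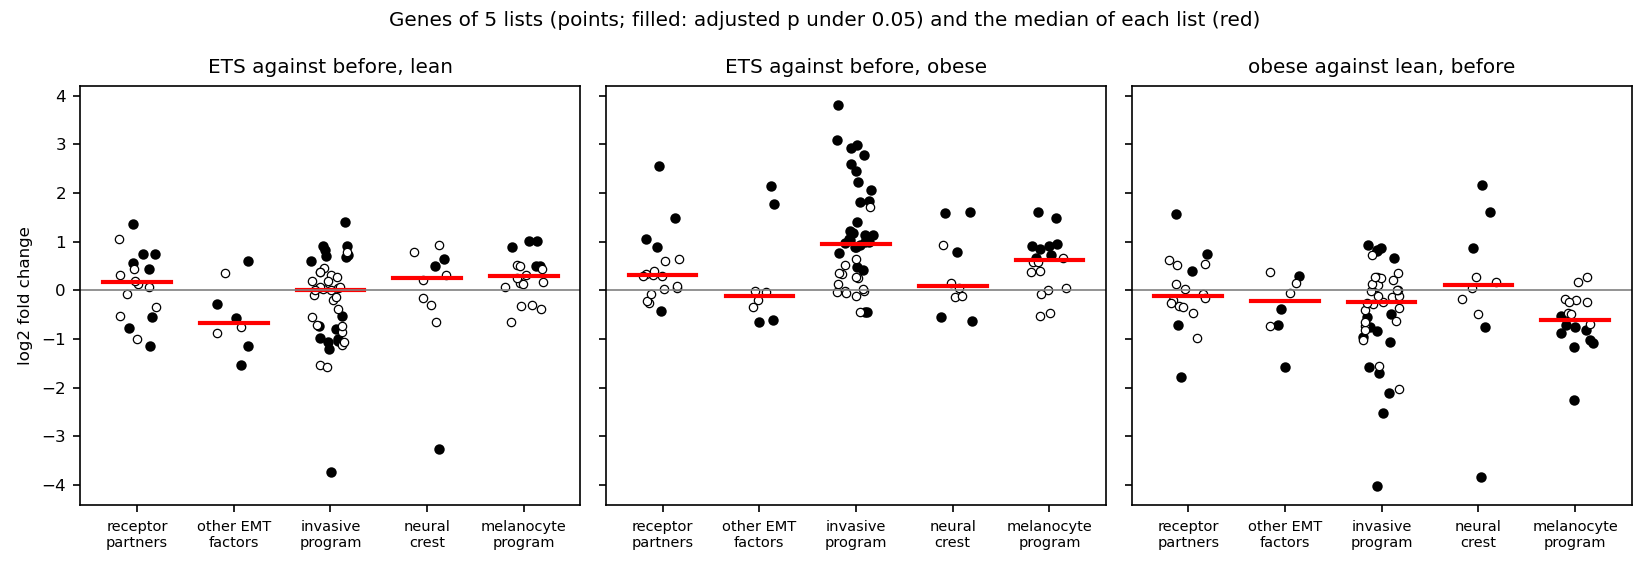
Log2 fold changes of the tested genes of 5 lists (points, filled at an adjusted p under 0.05) with each list's median (red line), for the ETS effect in lean and in obese tumors and for obese against lean tumors before therapy. The median of the invasive program is 0.01 in lean and 0.95 in obese tumors after ETS.

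Markers of host cells were set beside the members, and the lists did not all move alike. The 14 macrophage markers summed to 559 to 1637 CPM in lean tumors before therapy, 54.4 to 464 CPM in lean tumors after ETS, 51.8 to 298 CPM in obese tumors before therapy and 396 to 1272 CPM in obese tumors after ETS. Of the 12 that could be tested, 10 were lower in lean tumors and 10 higher in obese tumors after ETS, and 11 were lower in obese tumors before therapy. The median log2 changes were -2.55 and 2.44 with ETS and the median difference before therapy was -3.41. The lean count was 6 without tumor 1 or 2 before therapy or tumor 3 or 4 after ETS, and the obese count was 6 without tumor 3 or 4 before therapy or tumor 4 after ETS. Of all genes 22.8% were lower with ETS in lean tumors, 21.2% higher in obese tumors and 12.9% lower in obese tumors before therapy. The 10 fibroblast markers summed to 568 to 2337, 109 to 645, 103 to 683 and 670 to 5910 CPM in the same order of groups, and of 9 tested 5 were lower in lean (median -1.75) and 9 higher in obese tumors (median 2.76) after ETS. The lean fibroblast count was 0 in edgeR without tumor 1 or 2 before therapy or tumor 3 or 4 after ETS, and 2 without tumor 1 after ETS. The obese fibroblast count was 5 without tumor 4 after ETS. Axl and Zeb1 moved in these directions in both hosts, and no other member in the main fit passed in both. Between hosts, 2 of 9 fibroblast markers were lower in obese tumors before therapy (5 in DESeq2). After ETS 0 of 12 macrophage and 4 of 9 fibroblast markers were higher in obese tumors, where 3.28% of all genes were. These counts were 3 and 7 in DESeq2, and 0 and 0 with only the groups compared. Between hosts after ETS, 1 of 11 endothelial, 1 of 7 pericyte, 0 of 7 Schwann cell and 1 of 1 adipocyte markers were higher in obese tumors. In DESeq2 the first 3 of these were 7, 2 and 1, and with only the groups compared 0, 0 and 0. Within obese tumors, ETS against before therapy, 8 of 11 endothelial markers were higher, where 21.2% of all genes were. So were 5 of 7 pericyte, 4 of 7 Schwann cell (with 1 lower) and 1 of 1 adipocyte markers. Without 1 tumor these counts were 5 to 9 for endothelial markers (5 without tumor 1 after ETS), 3 to 6 for pericyte markers (3 without tumor 3 or 4 before therapy or 1 after ETS) and 2 to 4 for Schwann cell markers (2 without tumor 1 or 4 before therapy or 4 after ETS), and the adipocyte marker was lost without tumor 1 or 4 before therapy or 1 after ETS. Summed Schwann cell markers were at 189 to 230 CPM in lean tumors before therapy and 533 to 659 CPM after ETS. In obese tumors they were at 464 to 514 CPM and 601 to 997 CPM. Within lean tumors, ETS against before therapy, 2 endothelial, 2 pericyte and 2 Schwann cell markers were lower and 3 Schwann cell markers higher. Without 1 tumor the endothelial count was 1 to 4 and the pericyte count 0 to 2. No keratinocyte marker could be tested, and all 7 were at 0 in obese tumors before therapy. Once group means were removed, deviations of the 16 tumors in Axl had a Pearson r of 0.753 with those of the macrophage markers and 0.707 with those of the fibroblast markers. Egfr had 0.896 with fibroblast and 0.705 with macrophage markers. Zeb1 had 0.659 with fibroblast, 0.627 with endothelial and 0.459 with macrophage markers, and Wnt5a had 0.617 with fibroblast and 0.285 with macrophage markers. With macrophage and fibroblast markers, in that order, Snai2 had -0.0673 and 0.218, Zeb2 -0.283 and -0.267, Nes 0.379 and 0.451 and Sox9 -0.640 and -0.450. Members and markers were read from the same library of each tumor, and the part of host cells in the members' changes was not tested.

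**Figure D4:**
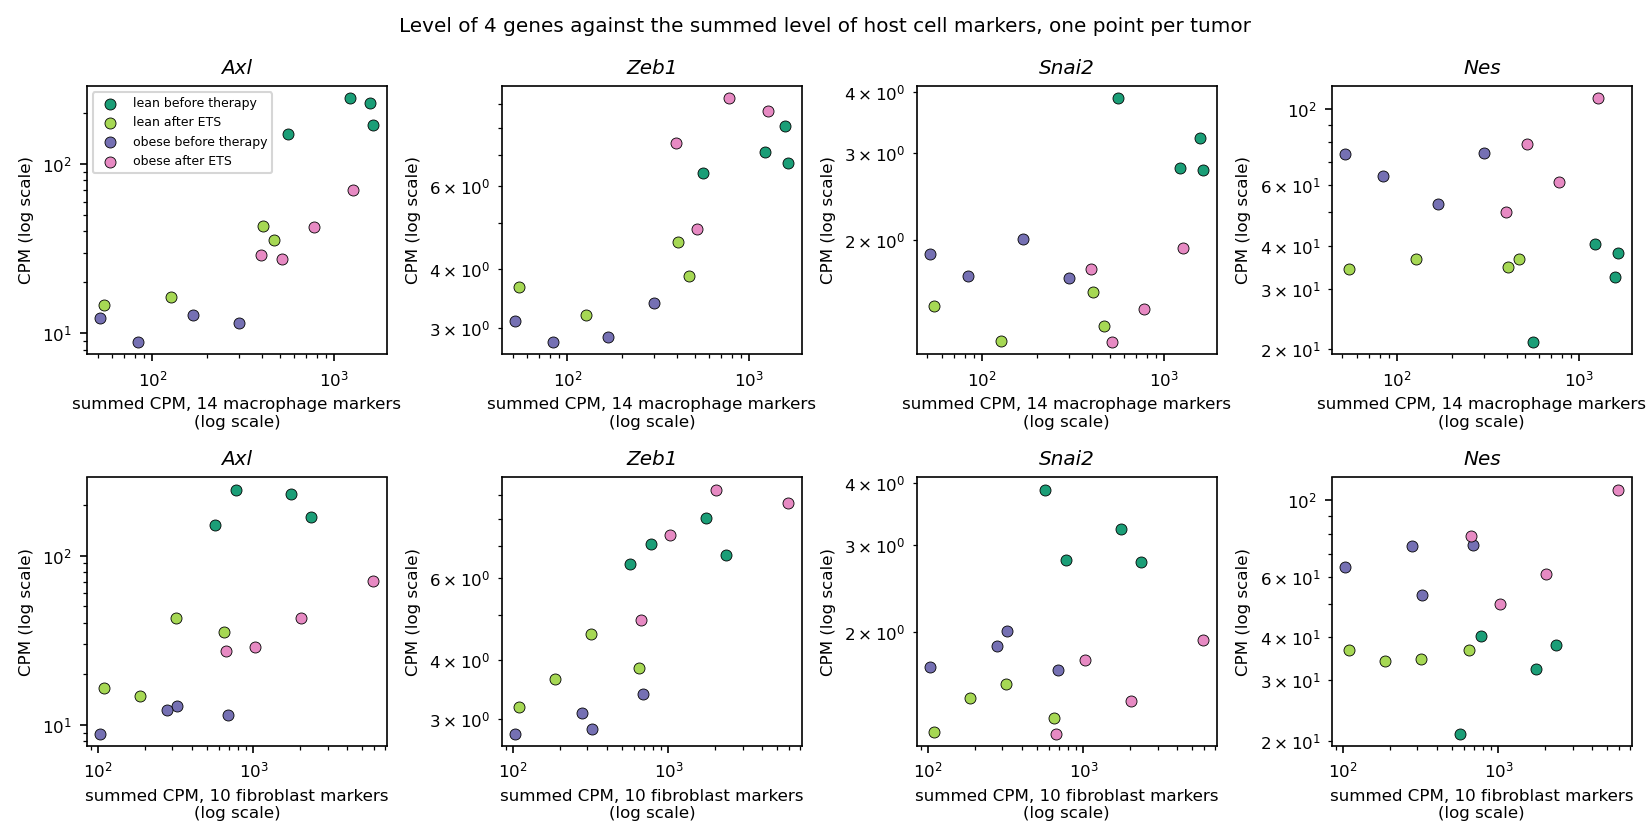
The level of Axl, Zeb1, Snai2 and Nes in CPM against the summed CPM of 14 macrophage markers (top) and 10 fibroblast markers (bottom), both axes on a log scale, with 1 point per tumor and a color per group. Axl is highest in lean tumors before therapy (151 to 245 CPM) and at 70.3 CPM in the obese tumor with the highest fibroblast sum (5910 CPM), Snai2 is highest in lean tumors before therapy, and Nes is higher in all obese than in all lean tumors.

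Genes whose deviations from the group means followed each member most closely over the 16 tumors were sought among tested genes whose mean reached 1 CPM. For Axl these were Zfand2a (r = 0.906), Rasa4 (0.905) and Cd53 (0.901), the last a leukocyte tetraspanin. For Egfr they were Fgf2 (0.963), Clmp (0.961) and Medag (0.945), and for Zeb1 Meox2 (0.901), Bst2 (0.883) and Gm7027 (0.881). Zeb2 was followed by Pam (0.965), Tcaf1 (0.935) and Klhl9 (0.927), and Sox9 by Nckap1 (0.937), Sema6d (0.878) and Vcl (0.872). The closest to Wnt5a was Ptprn (0.902), with Ptgs2 (0.884) and Smim3 (0.883) after it. Nes had Tubb4a (0.921), Gm35340 (0.879) and Rtn4rl2 (0.878), and Snai2 had lower values, led by Lrig3 (0.811), Fcf1 (0.787) and Ccl27a (0.775). Between members, Axl and Egfr had an r of 0.735, Axl and Wnt5a 0.721 and Axl and Zeb1 0.671, whereas Zeb2 had -0.277 with Axl and with Zeb1. These correlations are across tumors chosen from many genes and carry no test.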

How the data were processed

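RNA of B16F10 tumors was sequenced by the authors with a stranded TruSeq mRNA kit. Per the labels and the submitters' processing notes, reads were aligned to mm10 with HISAT2 2.1.0 and quantified per gene with StringTie 2.1.3b, after bcl2fastq 2.20.0 and Trimmomatic. The deposited read counts are whole numbers that were not normalized. The authors also deposited TPM values, used for levels between genes, ratios and 1 alternative, and FPKM values, which were not used. Whether counting used the strand is not stated. No column was left without a sample.

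Of 45777 genes, 29568 had no read in at least 1 tumor and were left out, following the study's methods, so that 16209 were tested. edgeR 4.0.16 in R 4.3.3 (TMM scaling, quasi-likelihood test, a mean for each of 4 groups, all 16 tumors) gave 5 comparisons, with p-values adjusted by Benjamini-Hochberg over the 16209 genes and a threshold of 0.05. Standard errors were computed from the fold change and the F statistic. CPM was computed on TMM-scaled library sizes. On simulated counts of 15924 genes, 176 of 200 changed genes were recovered with 9 false calls in the lean comparison and 146 with 6 in the difference of effects. Of the 2-fold changes among them, 78 of 100 were recovered in the lean comparison and 59 of 100 in the difference. No other gene was changed in the simulation, unlike in these tumors. Totals were 47199949 to 61655287 counts per tumor. Within-group correlations of log2 CPM were 0.970 to 0.992, and no pair of libraries agreed within counting noise. Alternatives were another scaling and other filters, edgeR's exact test, DESeq2 1.42.0, limma 3.58.1 on log2(TPM + 1), only the groups compared, a replicate block and leaving out each tumor.

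The members and lists were chosen with earlier results of these data known, so their counts are descriptions set beside those of all genes. Named genes are the 10 members, up to 4 genes with the lowest adjusted p of each list and partners that bind a member, and the 3 genes most alike each member. Mitf, Tyro3, Tyrp1 and Cdh1 were named from the lists outside that rule, after their values were seen, and not every gene the rule allows was named.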

Additional observations from a re-analysis of the deposited data

Results flagged for a closer look

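The 10 genes were examined in 4 groups each, 40 combinations, for a tumor far from the other 3 of its group by Dixon's test, which chance alone would flag in about 1 in 20 groups. It marked 5. Egfr was 27.4 CPM in obese tumor 4 after ETS, beside 2.96 to 4.90 CPM in the others, and this tumor also held the most fibroblast markers. Ngfr was 0.508 CPM in the same tumor, beside 0.236 to 0.271 CPM. In lean tumor 1 after ETS Ngfr was 0.285 CPM, beside 0.140 to 0.161 CPM. Wnt5a was 1.48 CPM in lean tumor 4 before therapy, beside 0.665 to 0.797 CPM, and 1.64 CPM in obese tumor 4 before therapy, beside 0.301 to 0.499 CPM.

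The effect of ETS differed between lean and obese tumors, lean minus obese on the log2 scale, by -4.76 for Axl (edgeR adjusted p = 2.78e-05), -2.20 for Zeb1 (8.07e-05), -5.25 for Egfr (0.0147), -0.98 for Snai2 (0.0166) and -2.90 for Wnt5a (0.0499).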

How the results depend on the processing

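Of 701 recomputed fold changes of single members, 638 kept their direction and side of the threshold, 49 lost the call, 3 gained it and 11 changed sign. The calls of Axl and Zeb1 in both hosts, in the difference of effects and before therapy, of Snai2 in lean tumors, the difference and before therapy, of Zeb2 in lean tumors, of Nes before therapy and of Egfr in the difference held in all alternatives. Calls were lost for Wnt5a and Egfr, and after ETS also for Zeb1 (only the groups compared, limma on TPM) and Nes (only the groups compared, without lean tumor 4 after ETS). The number of members called in obese tumors with ETS was 2 to 4 when a tumor was left out, with 2 without obese tumor 3 before therapy or without obese tumor 4 after ETS. In the comparison of hosts after ETS, 4 in the main test, it was 2 without a filter on low counts, 2 with edgeR's filterByExpr, 0 with only the groups compared and 1 with limma on log2(TPM + 1). It was 1 to 4 when a tumor was left out, 2 without any of lean tumors 1, 2 and 3 or without obese tumor 4, and 1 without lean tumor 4. The cause was not tested.

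Signs changed only for fold changes that passed no test. For Nes these were in lean tumors -0.21 (limma on TPM) and -0.057 (without lean tumor 3 before therapy), in obese tumors -0.055 (without tumor 4 after ETS), and in the difference 0.017 and 0.055 (without lean tumor 1 or 4 before therapy), 0.035 (without obese tumor 3 before therapy) and 0.14 (without obese tumor 4 after ETS). After ETS, Sox9 gave -0.038 (without obese tumor 1) and Zeb2 -0.089, -0.0071 and -0.030 (without lean tumor 2, obese tumor 3 or obese tumor 4). Leaving out a tumor gave Nes -0.057 to 0.22 in lean tumors, -0.055 to 0.32 in obese tumors and -0.22 to 0.14 in the difference, and after ETS Sox9 -0.038 to 0.48 and Zeb2 -0.089 to 0.14.

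TPM moved the median of all genes by -0.35 in lean tumors, -0.26 in the difference and by -0.13 and 0.13 between hosts before and after ETS. The share of calls that were higher was 15.7% with TPM and 48.0% with TMM in lean tumors, 9.24% and 38.7% in the difference, 29.0% and 51.0% before therapy and 83.8% and 58.7% after ETS.

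Replicate numbers did not pair the tumors: deviations of same-numbered tumors correlated between -0.11 and 0.45 over 24 pairs, and of others between -0.58 and 0.51 over 72 pairs. A replicate block raised the count in lean tumors from 4 to 5, through Egfr (-2.11, edgeR adjusted p = 0.0424), and left the other counts at 4, 5, 4 and 4. At this depth levels of Ngfr below the 0.0620 and 0.0502 CPM that a count of 0 allows in 2 libraries were not detectable. With limma on TPM 2 of the 44 invasive program genes were higher and 19 lower in lean tumors, beside 8 and 9 with TMM.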
